A study of Homo sapiens with 12 samples.

Results

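The genes described here make, fold and remove proteins of the endoplasmic reticulum (ER). They were chosen by name, as 41 genes of 5 roles: 12 chaperones and their partners, 7 genes of disulfide bond formation, 12 genes of ER-associated degradation, 7 genes of translocation into the ER and 3 others. Genes had to average 10 normalized counts or more across the 12 libraries, and 40 of the 41 passed, among 15376 tested of 36601 genes in the table. The degradation gene DERL3 did not pass, since no read pair was assigned to it in any of the 12 libraries.

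RNA was sequenced from the KP4 line, established human pancreatic cancer cells kept in serum-containing medium. The line was wild type in every group only in that the paper describes no genetic change made to it. The paper could not detect p53 protein in this line. Cells were treated for 24 h with the solvent DMSO, with 10 mM metformin (Met), with 5 nM FK866 (FK) or with both drugs at those doses (Met+FK), with 3 libraries for each treatment. Metformin is a biguanide that inhibits respiratory complex I, and FK866 inhibits NAMPT, the enzyme that salvages nicotinamide for NAD synthesis. A single cell line stands for pancreatic cancer here, and the labels do not say whether the 3 replicates were separate cultures, so p-values measure the spread between these libraries, which may be technical.

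The 12 libraries held 30667735 to 41052203 read pairs (median 34767231). The epithelial keratin genes KRT8 (2217 to 3222 normalized counts) and KRT18 (9398 to 18721) and the mesenchymal gene VIM (93661 to 121917) were high in every library, whereas the epithelial genes KRT19 (means of 16.9 to 56.5 over the groups) and EPCAM (3.78 to 12.5) were low. The endothelial gene PECAM1 (3.14 to 12.3), the acinar gene PRSS1 (0 to 1.65) and the islet gene INS (0) were at or near 0, and the leukocyte gene PTPRC lay at 101 to 304. All values are counts divided by a size factor of the library, so they are relative. A change of the total RNA per cell would not be seen, and fewer cells cannot be told apart from less RNA per cell.

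Proteins bound for secretion or for membranes enter the ER through the SEC61 channel, lose their signal peptide and fold with the help of HSP70 and HSP90 chaperones, lectin chaperones and protein disulfide isomerases. Proteins that fail to fold are led back to the cytosol by the SEL1L-SYVN1 ubiquitin ligase complex and degraded by the proteasome. When unfolded proteins build up, 3 sensors in the ER membrane (ATF6, IRE1, encoded by ERN1, and PERK, encoded by EIF2AK3) start the unfolded protein response, which is known to raise transcription of most of these genes together.

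In Met against DMSO, 12 of the 40 members were called, in both directions, and 28 were not. Of the 12, 7 rose (HSPA5, DNAJB9, DNAJC10, HYOU1, ERO1B, SEL1L and HERPUD1) and 5 fell (SDF2L1, MANF, CRELD2, CALR and WFS1). A gene was called where the adjusted p of limma-trend, a linear model fitted across all genes tested, was under 0.05 and the fold change over 1.5. By the same rule 23% of all genes tested were called (12.8% higher, 10.2% lower), so the share of members called was near that of all genes. The median log2 fold change of the members was −0.06, beside 0.01 over all genes tested. The ranges of the DMSO and Met libraries did not overlap for 28 of the 40, with Met above in 12 and below in 16, beside 56.9% of all genes. At an adjusted p under 0.05 alone, 10 members were higher and 15 lower, beside 50.9% of all genes.

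**Figure D1:**
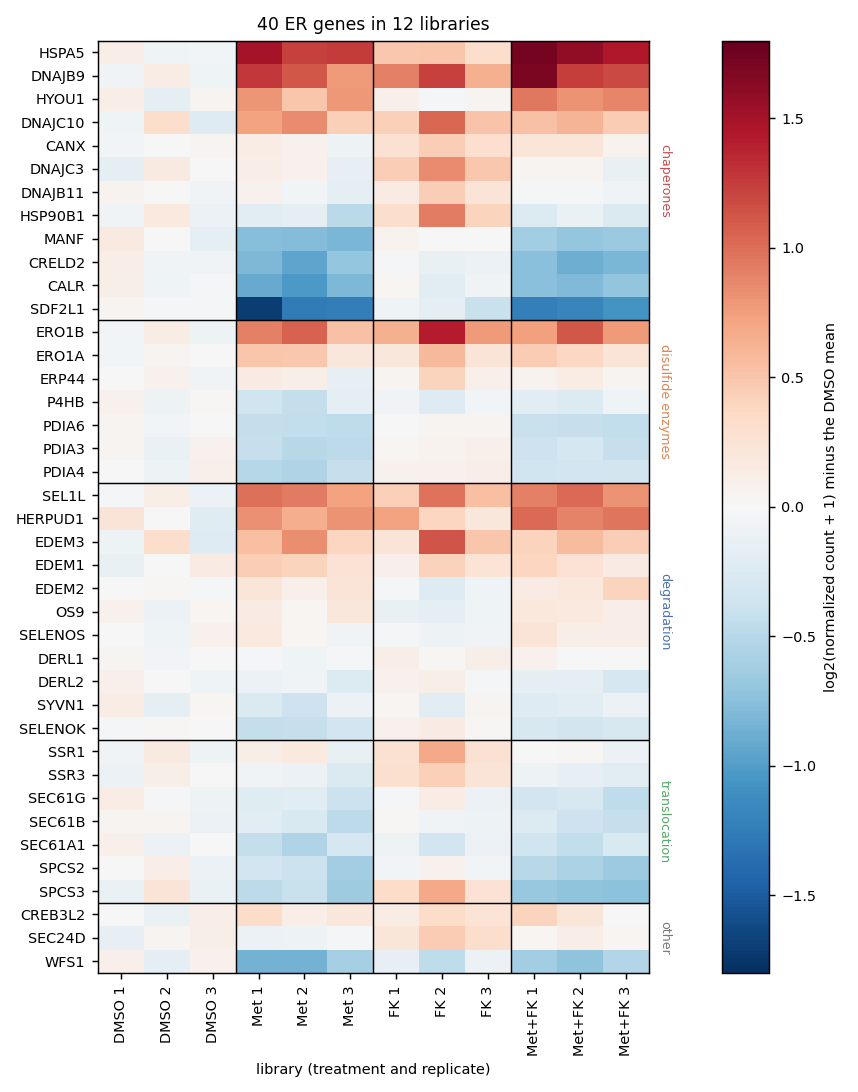
Each row is 1 of the 40 members, ordered by role, and each column 1 of the 12 libraries; colour gives log2(normalized count + 1) minus that gene's mean in the DMSO libraries. HSPA5 and HYOU1 are above the DMSO mean in every Met and Met+FK library, whereas SDF2L1, MANF, CRELD2 and CALR are below it in all 6.

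Of the 12 chaperones, 4 rose, 4 fell and 4 passed neither way. The share called was 66.7%, beside 23% of all genes tested, and the median log2 fold change of the chaperones was −0.01. The change with the smallest adjusted p among them was that of HSPA5 (chr9:125234853-125241343, minus strand), which encodes BiP, the HSP70 of the ER lumen. Its level was 23118, 20098 and 20535 normalized counts in the DMSO libraries, 59618, 49948 and 50852 in Met, 29702, 29868 and 26487 in FK and 69728, 64262 and 57579 in Met+FK. The 6 libraries with metformin stood above the 6 without. HSPA5 was 2.51-fold higher in Met than in DMSO, a log2 fold change of 1.33 (SE 0.0893, adjusted p = 5.18e-08) by limma-trend on log2(normalized count + 1).

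DNAJB9 (chr7:108569867-108574850, plus strand), a co-chaperone of BiP known as ERdj4, rose from 301 ± 24.9 to 632 ± 110.1 normalized counts (SD, n = 3), with values of 289, 330.1 and 285 normalized counts in the DMSO libraries, 727, 656 and 511 in Met, 565, 709 and 468 in FK and 976, 715 and 688 in Met+FK. Each of the 9 drug-treated libraries exceeded each DMSO library. Its log2 fold change in Met was 1.05 (SE 0.167, adjusted p = 1.21e-04) by limma-trend. HYOU1, the nucleotide exchange factor of BiP, rose from 8627 ± 841 to 13925 ± 1541 with a log2 fold change of 0.69 (SE 0.0887, adjusted p = 1.99e-05) by limma-trend. DNAJC10, a J protein with disulfide reductase activity, rose from 2903 ± 584 to 4587 ± 677 (log2 fold change 0.67). Its call was lost without DMSO replicate 3, without Met replicate 2 and, at 0.23, after removal of each library's trend on GC content and transcript length.

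SDF2L1 (chr22:21642302-21644299, plus strand), a partner of the J protein DNAJB11 in the BiP cycle, fell most on the log2 scale of the 40 members. It had 540.1, 517 and 513 normalized counts in the DMSO libraries, 159.9, 217 and 221 in Met, 497, 464 and 397 in FK and 222, 229 and 247 in Met+FK, so that the 6 libraries with metformin lay below the 6 without. The level in Met was 2.64-fold lower than in DMSO, a log2 fold change of −1.40 (SE 0.128, adjusted p = 7.29e-07) by limma-trend. DNAJB11 itself had 2125 ± 86.2 normalized counts in DMSO and 2067 ± 174 in Met (log2 fold change −0.04, adjusted p = 0.71, limma-trend). It overlaps TBCCD1, whose mean level was 36.5% of its own.

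CALR (chr19:12938578-12944489, plus strand), the lectin chaperone calreticulin, fell from 38169, 33649.8 and 34432 in the DMSO libraries to 18877, 17281 and 20210.0 in the Met libraries, and was at 36148, 30955 and 33894 in FK and 21002, 20426 and 21596 in Met+FK. The log2 fold change in Met was −0.92 (SE 0.0769, adjusted p = 3.41e-07) by limma-trend, and again the 6 libraries with metformin lay below the others. Its membrane-bound relative CANX, calnexin, had 29396 ± 899.6 in DMSO and 30268 ± 2427 in Met. Its log2 fold change of 0.04 was not called (adjusted p = 0.678, limma-trend). With the GC and length trend removed it was −0.26 (adjusted p = 0.0044, limma-trend), lower in Met but under the fold threshold. The ratio of CALR to CANX was 1.34, 1.14 and 1.14 in the DMSO libraries and 0.585, 0.558 and 0.733 in Met.

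MANF, a secreted ER-resident factor that binds BiP, fell from 1913 ± 219 to 1104 ± 20.5 normalized counts (SD, n = 3; log2 fold change −0.79). CRELD2, another secreted ER protein, fell from 1387 ± 106 to 789 ± 68.6 (−0.81). CRELD2 overlaps ALG12, whose mean level was 65.9% of its own. Since the strand setting of the counting is not given, reads from the stretch the 2 genes share cannot be told apart. How many reads lie there was not measured. HSP90B1 (chr12:103930107-103953645, plus strand), the HSP90 of the ER known as GRP94, had 10473, 12410.4 and 10194 normalized counts in the DMSO libraries, 9623, 9711 and 7865 in Met, 13724, 20879.5 and 14464 in FK and 9284, 10156 and 9175 in Met+FK. Its values in Met lay below those in DMSO in every library, but the log2 fold change of −0.28 (SE 0.134, adjusted p = 0.09) was not called by limma-trend. With the GC and length trend removed it was −0.47 (adjusted p = 9.26e-05, limma-trend), still under the fold threshold. DNAJC3, an inhibitor of PERK known as P58IPK, had a log2 fold change of 0.01.

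Promoter sequences are shown because members that moved in opposite directions carry the same elements. The ER stress response element (CCAAT, then 9 bases of any kind, then CCACG) and its second form (ATTGG, 1 base, then CCACG) are known as binding sites of NF-Y with ATF6 or XBP1. Both strands of the 250 bases before the RefSeq start (GRCh38.p14) were searched for 37 of the 40 members. The first element was found in 6 of 37 (16.2%), beside 26 of 35116 promoters of all genes (0.074%), and the second in 3 of 37 (8.11%), beside 18 of all (0.0513%). Members were chosen with these known roles in view, so the difference is a description. The core TGACGTGG was found in 2 members (5.41%, beside 0.612% of all promoters) and TTGCATCA, a form of the ATF4 site, in 1 (2.7%, beside 0.772%). In HYOU1 a TGACGTGG overlaps a match of the second element. In the stretches below, each read 5′ to 3′ on the strand of the gene, capitals mark the fixed letters of these motifs. The first 3 genes rose in Met and the last 2 fell. The other members with a match, CANX, CRELD2, ERO1B and HSP90B1 with the first element and DNAJC10 with TGACGTGG, are named only.
HSPA5 (chr9:125241381-125241419, minus strand, 76 to 38 bases before the start): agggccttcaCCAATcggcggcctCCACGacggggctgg
HYOU1 (chr11:119057264-119057403, minus strand, 198 to 59 bases before the start): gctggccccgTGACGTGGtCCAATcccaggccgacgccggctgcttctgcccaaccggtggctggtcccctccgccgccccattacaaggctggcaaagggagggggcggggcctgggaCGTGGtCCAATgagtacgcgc
HERPUD1 (chr16:56931956-56932045, plus strand, 186 to 97 bases before the start): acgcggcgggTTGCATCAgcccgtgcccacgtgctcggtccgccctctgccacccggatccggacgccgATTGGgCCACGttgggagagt
CALR (chr19:12938374-12938412, plus strand, 235 to 197 bases before the start): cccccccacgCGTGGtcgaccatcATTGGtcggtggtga
SDF2L1 (chr22:21642104-21642134, plus strand, 198 to 168 bases before the start): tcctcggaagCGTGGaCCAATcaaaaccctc

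Of the 7 members higher in Met, 2 held the first element (HSPA5 and ERO1B) and 2 the second (HYOU1 and HERPUD1). Of the 5 lower in Met, 2 held the first (CALR and CRELD2) and 1 the second (SDF2L1). A match is a description of letters, not evidence of binding.

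Of the 7 genes of disulfide bond formation 1 rose and none fell (14.3% called, beside 23% of all genes). Their median log2 fold change was −0.32. ERO1B (chr1:236215101-236281958, minus strand), an oxidase that passes electrons from protein disulfide isomerase to oxygen, had 158, 178 and 153 normalized counts in the DMSO libraries, 305, 341 and 235 in Met, 254, 436 and 277 in FK and 273, 356 and 278 in Met+FK. All 9 drug-treated libraries lay above the DMSO libraries. The log2 fold change in Met was 0.83 (SE 0.188, adjusted p = 0.00196) by limma-trend. ERO1B overlaps GPR137B, whose mean level was 139.8% of its own. Without the strand setting, reads from the stretch they share cannot be told apart, and how many lie there was not measured. After removal of each library's trend on GC content and transcript length, its log2 fold change was 0.48 and no longer called.

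The protein disulfide isomerases were lower in Met than in DMSO but did not reach the fold threshold. PDIA3 had a log2 fold change of −0.46 (SE 0.0685, adjusted p = 7.35e-05), PDIA4 of −0.49, PDIA6 of −0.44 and P4HB of −0.32, and each had an adjusted p under 0.05 by limma-trend. ERO1A, the other oxidase, had 3387 ± 117 in DMSO and 4473 ± 500.4 in Met (log2 fold change 0.40), also under the fold threshold. With the GC and length trend removed, the value for ERO1A was 0.06 (adjusted p = 0.53, limma-trend). ERP44, which retains ERO1 proteins in the ER, had a log2 fold change of 0.04.

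Of the 11 degradation genes tested, 2 rose and none fell (18.2% called, beside 23% of all genes). Their median log2 fold change was 0.13. SEL1L (chr14:81471547-81533853, minus strand), the scaffold of the ubiquitin ligase complex, rose from 2063 ± 158 to 3822 ± 368 normalized counts (SD, n = 3). Its values were 2036, 2233 and 1921 normalized counts in the DMSO libraries, 4112, 3947 and 3408 in Met, 2779.6, 4064 and 3007 in FK and 3846, 4156 and 3621 in Met+FK, and no drug-treated library overlapped the DMSO range. The log2 fold change in Met was 0.89 (SE 0.122, adjusted p = 3.41e-05) by limma-trend, and 0.53, under the fold threshold, after removal of the GC and length trend.

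SYVN1 (chr11:65121780-65134533, minus strand), the ubiquitin ligase that SEL1L holds, was not called. Its values were 1454, 1181 and 1352 normalized counts in the DMSO libraries, 1110.0, 1027 and 1234 in Met, 1363, 1154 and 1368 in FK and 1125, 1145 and 1232 in Met+FK, with a log2 fold change in Met of −0.24 (SE 0.101, adjusted p = 0.0589) by limma-trend. SYVN1 overlaps FAU on the same strand, a ribosomal protein gene with 707% of its mean level, so its counts are uncertain. The ratio of SEL1L to SYVN1 lay between 1.40 and 1.89 in DMSO and between 2.76 and 3.84 in Met, without overlap. The GC content of the transcripts was 39.3% for SEL1L and 58.5% for SYVN1. With the GC and length trend removed, the log2 fold changes in Met were 0.53 for SEL1L and −0.09 for SYVN1. The part of that trend in the ratio was not tested.

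HERPUD1 (chr16:56932142-56944864, plus strand), a membrane protein that recruits the ligase complex, had 2261, 1908 and 1645 normalized counts in the DMSO libraries, 3412, 3018 and 3358 in Met, 3175, 2512 and 2209.7 in FK and 3883, 3577 and 3739 in Met+FK. Every Met and Met+FK library exceeded every DMSO library. The log2 fold change in Met was 0.76 (SE 0.126, adjusted p = 1.72e-04) by limma-trend. EDEM1, EDEM2 and EDEM3 trim mannose from misfolded glycoproteins, and their log2 fold changes in Met were 0.37, 0.19 and 0.58. EDEM3 had 877, 1161 and 795 normalized counts in DMSO and 1352, 1664 and 1214 in Met, just under the fold threshold (adjusted p = 0.0181, limma-trend). In Met+FK it had 1226, 1381 and 1273. The derlins DERL1 (−0.04) and DERL2 (−0.14), the lectin OS9 (0.13) and SELENOS (0.05) were not called in Met. SELENOK, a selenoprotein that binds derlins, lay lower in Met at 689, 694 and 726 than in DMSO at 916, 941 and 924 (log2 fold change −0.40, adjusted p = 4.75e-04, limma-trend), also under the fold threshold.

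**Figure D2:**
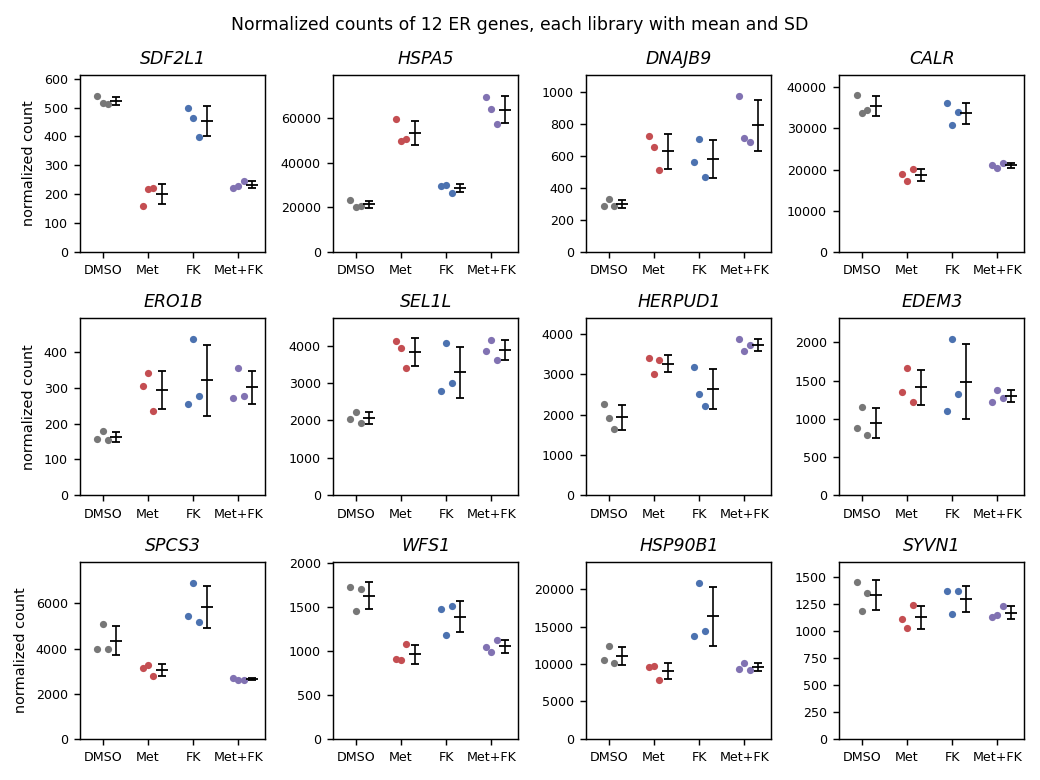
Points give the normalized count of each library (linear axis from 0) for the 12 members named by rule, by treatment, and bars give the group mean with its SD (n = 3). The Met and Met+FK points lie above all DMSO points for HSPA5, HERPUD1 and SEL1L and below them for SDF2L1, CALR and WFS1.

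None of the 7 translocation genes was called in Met against DMSO (0 of 7 by limma-trend), beside 23% of all genes. At an adjusted p under 0.05 alone 5 were lower, beside 50.9% of all genes in either direction. Their median log2 fold change was −0.32. The channel subunits SEC61A1, SEC61B and SEC61G had log2 fold changes of −0.43, −0.32 and −0.27, and the signal peptidase subunits SPCS2 and SPCS3 of −0.45 and −0.50. SSR1 and SSR3, subunits of the translocon-associated protein complex, had 0.05 and −0.15. SPCS3 (chr4:176319966-176332245, plus strand) had 4001, 5099 and 3972 normalized counts in the DMSO libraries, 3132, 3282 and 2768 in Met, 5428, 6927 and 5187 in FK and 2689.5, 2628 and 2605 in Met+FK. The 6 libraries with metformin lay below the 6 without, and those of FK above all others.

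Of the 3 remaining members, WFS1 (chr4:6269849-6303265, plus strand), an ER membrane protein whose loss causes Wolfram syndrome, fell. It had 1728, 1446 and 1705 normalized counts in the DMSO libraries, 901, 895 and 1075 in Met, 1469.6, 1183 and 1503 in FK and 1047, 981 and 1126 in Met+FK, and the 6 libraries with metformin lay below the 6 without. The log2 fold change in Met was −0.77 (SE 0.111, adjusted p = 5.80e-05) by limma-trend. SEC24D, a coat protein of vesicles that leave the ER, had −0.07 and the membrane-bound transcription factor CREB3L2 0.21.

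Chaperones and degradation genes were compared by the mean log2(normalized count + 1) over each list within a library. The chaperone mean minus the degradation mean was 1.04, 1.08 and 1.02 in the DMSO libraries and 0.836, 0.825 and 0.779 in Met, a difference of group means of −0.23 with no overlap. The FK libraries had 1.16, 1.23 and 1.12 and the Met+FK libraries 0.934, 0.888 and 0.861. The chaperone mean was 11.87 ± 0.0530 in DMSO and 11.83 ± 0.0610 in Met, and the degradation mean 10.82 ± 0.0314 and 11.02 ± 0.0328. With the median over members in place of the mean the difference was 0.33 in the opposite direction, so the sign depends on how the lists are summarised. No p is given, since the members were chosen by name with results known.

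The 40 members took 0.681 ± 0.00542% of normalized counts in DMSO, 0.755 ± 0.0321% in Met, 0.776 ± 0.0256% in FK and 0.797 ± 0.0343% in Met+FK (SD, n = 3). HSPA5 made up 8.65 ± 0.459% of the module in DMSO and 21.4 ± 1.20% in Met, and CALR 14.4 ± 0.641% and 7.52 ± 0.645%. The ratio of HSPA5 to HSP90B1 was 2.21, 1.62 and 2.01 in the DMSO libraries and 6.20, 5.14 and 6.47 in Met, and that of HSPA5 to CALR 0.606, 0.597 and 0.596 and 3.16, 2.89 and 2.52. Neither ratio could overlap between the 2 groups, since HSPA5 in Met lay above its DMSO range, and HSP90B1 and CALR below theirs.

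**Figure D3:**
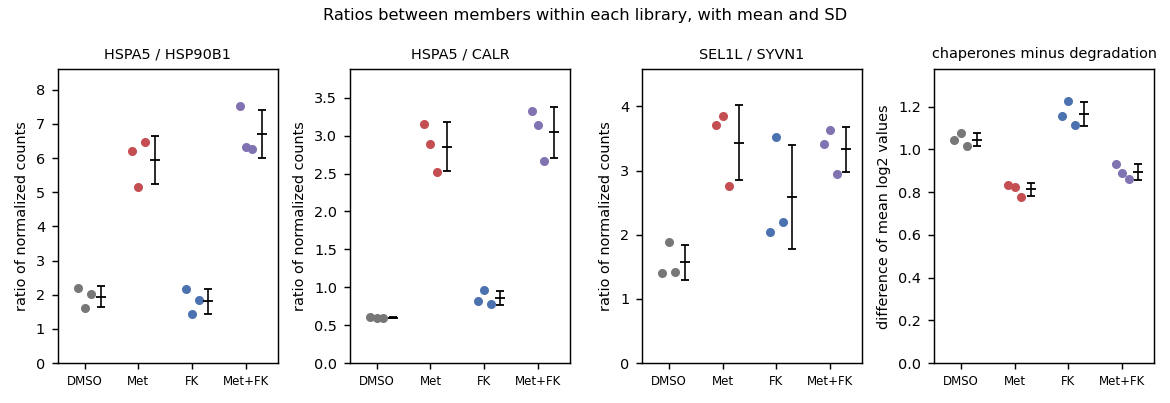
Points give, for each library, the ratio of normalized counts of 2 members (3 panels) and the chaperone mean minus the degradation mean on the log2 scale (last panel), by treatment, with bars for the group mean and SD (n = 3). HSPA5 per HSP90B1 has means of 1.95 in DMSO, 5.93 in Met, 1.81 in FK and 6.70 in Met+FK.

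Levels of different genes were compared per kilobase of the Ensembl canonical transcript, which need not be the form these cells express. In DMSO, CALR was highest of the 40 at 18631 normalized counts per kilobase, followed by P4HB (8218), SEC61G (6039), CANX (5981), SEC61A1 (5643) and HSPA5 (5419.6). In Met, HSPA5 was first at 13637 and CALR second at 9884. ERO1B was lowest of the 40 in every group, at 32.7 in DMSO.

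FK866 raised 6 members against DMSO and lowered none. These were the J proteins DNAJB9, DNAJC10 and DNAJC3, the oxidase ERO1B, and SEL1L and EDEM3 of degradation. By limma-trend 3.49% of all genes were called (2.73% higher, 0.754% lower). Log2 fold changes were 0.93 (SE 0.167, adjusted p = 0.00837) for DNAJB9, 0.94 for ERO1B, 0.62 for EDEM3, 0.65 for SEL1L, 0.66 for DNAJC10 and 0.59 for DNAJC3. At an adjusted p under 0.05 alone, 16 members were higher and none lower, beside 21.1% of all genes, and the ranges did not overlap for 18 of 40, beside 38.8%. The members' median was 0.09, beside −0.02 over all genes. HSPA5 had 0.43 (SE 0.0893, adjusted p = 0.0142) and HSP90B1 0.55 (SE 0.134, adjusted p = 0.0224) by limma-trend.

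The count of 6 depended on single libraries, as did the count over all genes. It was 0 without DMSO replicate 1 (0.611% of all genes called), 4 without DMSO replicate 3 (1.17%), 2 without FK replicate 2 (DNAJB9 and ERO1B; 0.65%), 2 with only the 6 libraries compared (0.728%), and 1 (DNAJB9) after removal of the GC and length trend (1.31%). In all 6 genes FK replicate 2 was the highest FK library, as for EDEM3 with 1099.6, 2044 and 1319 normalized counts in FK. Among the 40 members that library was the highest in 22 and the lowest in 13. The transcripts of these 6 genes were AT-rich, with a GC content of 36.6% to 39.9%, beside a median of 45.3% over the 40 members and 48.5% over all genes tested. They were also long, with a median of 6213.5 bases, and since both trends were removed together, the parts of GC content and length cannot be told apart.

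The slope of log2 level on GC content, per 10 points of GC and relative to the mean of all libraries, was 0.140 ± 0.0842 in DMSO and −0.0890 ± 0.136 in FK (SD, n = 3), and it was lowest in FK replicate 2 (−0.245). Across the 40 members the log2 fold change in FK had a Spearman correlation of −0.73 with GC content, beside −0.67 over all genes tested. The points share libraries and base composition, so no p is given. After removal of the trend it was 0.09 over the members. In Met the members' correlation with GC content was −0.37, beside −0.34 over all genes.

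**Figure D4:**
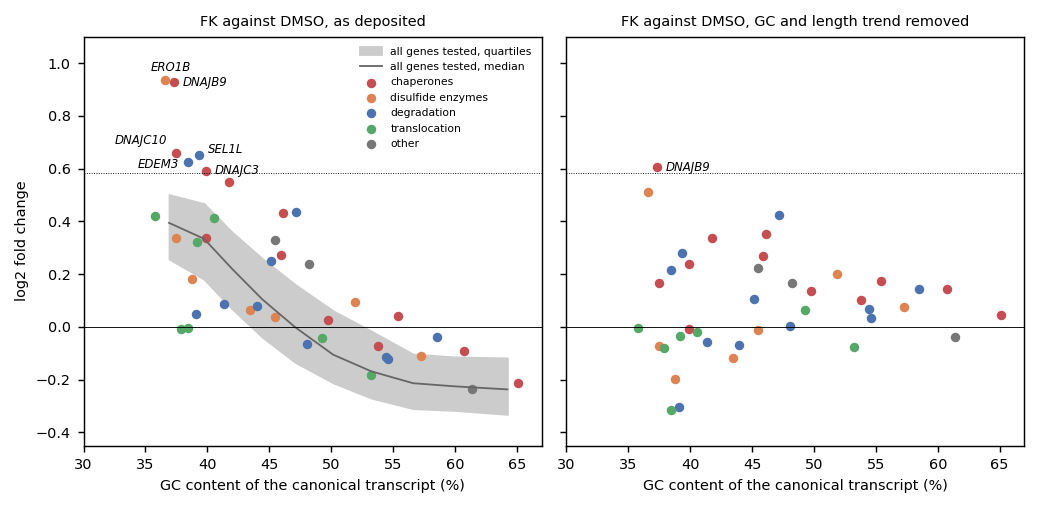
Log2 fold change of each of the 40 members in FK against DMSO, coloured by role, against the GC content of its canonical transcript in percent, as deposited (left) and with the GC and length trend removed (right); the dotted line marks a fold of 1.5, and the grey line and band on the left give the median and quartiles of all genes tested, in 10 equal bins by GC content. That median goes from 0.39 in the lowest bin to −0.24 in the highest, and on the right DNAJB9 is the only member above the dotted line.

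The members called in Met also differed in transcript features. The 7 that rose had a median GC content of 39.3% and a median length of 4598 bases, and the 5 that fell 60.7% and 1428 bases. With the GC and length trend removed, 4 members rose in Met (HSPA5, DNAJB9, HYOU1 and HERPUD1) and 8 fell, the latter including PDIA3, SPCS2 and SPCS3, in place of 7 and 5. HSPA5 then had a log2 fold change of 1.24, SDF2L1 of −1.20 and CALR of −0.76. The part of GC content and length in the other calls was not tested further.

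With both drugs, 6 members rose against DMSO (HSPA5, HYOU1, DNAJB9, HERPUD1, SEL1L and ERO1B) and 6 fell (SDF2L1, CALR, CRELD2, MANF, WFS1 and SPCS3), where 25.1% of all genes were called (13.7% higher, 11.3% lower). HSPA5 had a log2 fold change of 1.59 (SE 0.0893, adjusted p = 5.21e-09), HYOU1 of 0.88, SDF2L1 of −1.17 and SPCS3 of −0.71 (SE 0.115, adjusted p = 1.21e-04) by limma-trend. By role, 3 chaperones rose and 4 fell, 1 disulfide gene and 2 degradation genes rose, and 1 translocation gene and WFS1 fell. MANF and WFS1 lost their call with libraries scaled to the same total and without DMSO replicate 1. WFS1 also lost it without Met+FK replicate 2 and with the GC and length trend removed. The ranges did not overlap for 30 of 40 members, beside 60.9% of all genes, and 26 had an adjusted p under 0.05, beside 52.2%.

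Metformin added to FK866 (Met+FK against FK) raised 2 members and lowered 7, where 18.6% of all genes were called (9.27% higher, 9.29% lower). The 2 that rose were HSPA5, at 1.15 (SE 0.0893, adjusted p = 1.64e-07), and HYOU1, at 0.84. Those that fell were SDF2L1 (−0.95), CALR (−0.68), CRELD2 (−0.73), MANF (−0.69), DNAJC3 (−0.60), HSP90B1 (−0.75) and SPCS3 (−1.13). At an adjusted p under 0.05 alone the count was 26 of 40, beside 42.1% of all genes, and the ranges did not overlap for 27, beside 50.9%. HSP90B1 went from 13724, 20879.5 and 14464 normalized counts in the FK libraries to 9284, 10156 and 9175 in Met+FK. HSP90B1 and DNAJC3 lost their call without FK replicate 2. DNAJC3 also lost it without Met+FK replicate 3, with libraries scaled to the same total and with the GC and length trend removed.

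This comparison shares no library with Met against DMSO. Over the 40 members the 2 had the same sign for 32 (80%, beside 72.8% of all genes) and a Pearson correlation of 0.81, beside 0.76 over all genes. HSPA5, HYOU1, CALR, CRELD2, MANF and SDF2L1 were called in both, 50% of the 12 called without FK866 and 66.7% of the 9 called with it. DNAJB9 had a log2 fold change of 1.05 without FK866 and 0.45 with it, SEL1L 0.89 and 0.26, and HERPUD1 0.76 and 0.52. HYOU1 had 0.69 and 0.84. None of these differences was called in the interaction below (limma-trend, adjusted p = 0.12 for DNAJB9, 0.11 for SEL1L, 0.35 for HERPUD1 and 0.41 for HYOU1). With the GC and length trend removed, DNAJB9 had 0.81 and 0.59, SEL1L 0.53 and 0.33, HERPUD1 0.75 and 0.52, and HYOU1 0.81 and 0.80.

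**Figure D5:**
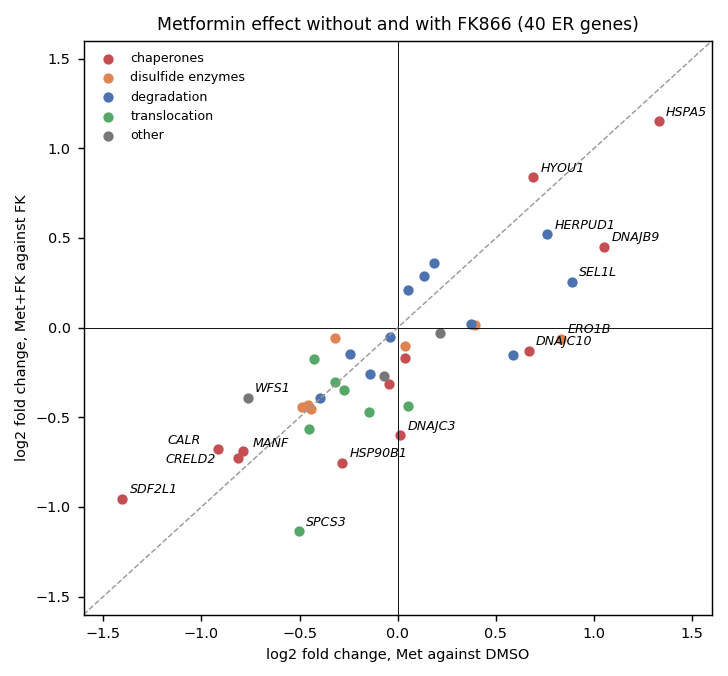
Each point is 1 of the 40 members, coloured by role, with its log2 fold change in Met against DMSO on the horizontal axis and in Met+FK against FK on the vertical axis; the dashed line marks equal values. HSPA5 (1.33 and 1.15) and SDF2L1 (−1.40 and −0.95) lie at opposite ends. SPCS3 (−0.50 and −1.13) and DNAJB9 (1.05 and 0.45) lie below the line and SDF2L1 lies above it.

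FK866 added to metformin (Met+FK against Met) called no member by limma-trend, where 0.0585% of all genes were called. At an unadjusted p under 0.05 it gave 3 of 40 (HSPA5, HYOU1 and PDIA4), beside 6.84% of all genes, and edgeR and DESeq2 called 0 members. HSPA5 had a log2 fold change of 0.26 (SE 0.0893, adjusted p = 0.54) by limma-trend, with a 95% interval from 0.07 to 0.45. The ranges of the Met and Met+FK libraries did not overlap for 10 of 40 members, beside 13.4% of all genes.

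The interaction asks whether the effect of FK866 differed with and without metformin, as the difference of the 2 log2 fold changes. By limma-trend it called 0 of 40 members and 0.0585% of all genes, with 17 of 40 at an unadjusted p under 0.05, beside 30.5% of all genes. The estimate was −0.61 (SE 0.165, adjusted p = 0.11) for DNAJC3, −0.63 for SPCS3, −0.47 for HSP90B1 and −0.74 for EDEM3. Pairing the libraries by replicate number, a fit with a replicate block called 16 of 40 members, where it called 32% of all genes. DESeq2 called 5 (4.52% of all genes) and edgeR 0 (0.065%). The count was 7 without FK replicate 1 (12% of all genes). With the GC and length trend removed it was 0 (0.718%), and 3 with the block added (DNAJC10, ERP44 and PDIA3), beside 6.87% of all genes. Over the 40 members the interaction had a Spearman correlation of 0.82 with GC content, beside 0.69 over all genes.

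Other genes of the same pathway were taken from a wider list. Of its 114 tested genes of ER folding, degradation and translocation, 4 rose and 6 fell in Met against DMSO, beside 12.8% and 10.2% of all genes. Among those that rose were RHBDD1, a rhomboid protease of ER-associated degradation, with a log2 fold change of 0.87 (SE 0.0765, adjusted p = 5.24e-07) by limma-trend, NGLY1, which removes glycans from retrotranslocated proteins (0.72), and HSPA13, an HSP70 relative (0.72). The ATPase VCP, which pulls substrates out of the membrane, fell from 31811 ± 2289 to 17503 ± 1213 normalized counts (−0.86), as did its cofactor NPLOC4 (−0.85) and the prolyl isomerase PPIB (−0.66). In FK against DMSO 1 of the 114 rose and none fell, beside 2.73% and 0.754% of all genes.

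Of 31 genes of the unfolded protein response and its ATF4 arm, 24 rose and none fell in Met against DMSO. By the same rule 12.8% of all genes were called higher and 10.2% lower. The median log2 fold change of the 31 was 1.09, beside 0.01 over all genes tested. The list was chosen with earlier results of these data known, so these counts are a description. All 20 listed targets of ATF4 rose, with a median of 1.70, and 4 of 11 sensors and factors did, with a median of 0.11. The largest changes were those of NUPR1, a stress-induced chromatin protein (3.01), DDIT3, which encodes CHOP (2.82), and TRIB3, a pseudokinase (2.63). Of the sensors, ERN1 had a log2 fold change of 1.63 (SE 0.0946, adjusted p = 1.22e-08), ATF6 of 0.75 and EIF2AK3 of 0.08 (SE 0.127, adjusted p = 0.618) by limma-trend. The transcription factors XBP1 (0.70) and ATF4 (0.88) rose. In FK against DMSO 4 of the 31 rose, beside 2.73% of all genes.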

How the data were processed

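Total RNA of 12 KP4 libraries was depleted of ribosomal RNA and sequenced as read pairs. Per the study's methods, the authors used cutadapt for trimming, STAR for alignment to hg38, featureCounts for counting and DESeq2 for normalization. Which annotation and strand setting featureCounts was given is not stated in the sources used here. Counts of 7 members that overlap a gene with over 5% of their own mean level are therefore uncertain. Besides CRELD2, ERO1B and SYVN1 these are DNAJB11 (TBCCD1, 36.5%), SEC61A1 (RUVBL1, 36.0%), DERL1 (TBC1D31, 23.7%) and DERL2 (MIS12, 40.2%). The deposited signal is each gene's count over its library's size factor (0.867 to 1.21). Whole read pairs were recovered for 100% of values within 0.01 reads, for 36601 genes, of which 9803 have no reads. Positions are those of the table, with the start counted from 1. Of 36366 genes found in GENCODE 44, 83.6% have the same start and end.

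Column names gave the treatment and replicate of each library. Limma-trend (limma 3.58.1, R 4.3.3) was fitted to log2(normalized count + 1) with 4 group means over all 12 libraries and 15376 genes, with Benjamini-Hochberg adjustment. Calls had an adjusted p under 0.05 and a fold over 1.5, with no fold threshold for the interaction. Fold changes are on the log2(value + 1) scale. The code was tested on simulated data. Members and lists were chosen with earlier results of these data known. Values in every library are given for up to 4 called members per role with the largest change in Met, and for HSPA5, HSP90B1, HERPUD1 and SYVN1. From the other lists, log2 fold changes are given for up to 3 largest and 3 smallest called changes. They are also given for the main factors of the unfolded protein response. Promoters are from RefSeq, and GC content and length are those of the Ensembl canonical transcript (found for 99.7% of tested genes).

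Alternatives were pseudocounts of 0.1 and 10, other filters, scaling to the same total or by TMM (edgeR 4.0.16), fits to the 6 libraries of a comparison, a replicate block, a loess trend (span 0.3) on GC content and log length removed, with and without the block, the count tests of edgeR (quasi-likelihood) and DESeq2 (1.42.0) on recovered read pairs, no fold threshold, and fits without single libraries. Over all genes edgeR called 3524 in Met and 616 in FK against DMSO. Same-numbered libraries were checked for pairing by correlating their deviations from the group means across genes. The correlations were 0.252, 0.42 and 0.219 for DMSO with FK and 0.171, 0.2 and 0.226 for Met with Met+FK, all above 0.1. Pairing by replicate number, which the labels do not state, was used only in the fits with a replicate block. The main fits left it out. Those of DMSO with Met (0.0129, 0.328 and 0.248) and of the other pairs were not all above it. After removal of the GC and length trend, 2 of the 3 for Met with Met+FK were under 0.1 (0.0954 and 0.0748).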

Additional observations from a re-analysis of the deposited data

How the results depend on the processing

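With the GC and length trend removed, 4 members were higher and 8 lower in Met than in DMSO, with or without the replicate block, and 1 was called in FK against DMSO. DNAJC10 (0.23), ERO1B (0.48) and SEL1L (0.53) then lost their call in Met and SPCS3 (−0.85) gained one. With the adjusted p alone, 15 members were lower in Met, 16 were called in FK against DMSO, 11 were higher and 15 lower in Met+FK than in DMSO, and 26 were called in Met+FK against FK. With only the 6 libraries compared, 2 members were called in FK against DMSO. Leaving out each library in turn gave 6 to 8 members higher and 5 lower in Met, 0 to 7 called in FK against DMSO, 6 to 8 higher and 4 to 7 lower in Met+FK than in DMSO, 8 to 11 in Met+FK against FK and 0 in Met+FK against Met. The chaperone mean minus the degradation mean changed by −0.52 between DMSO and Met with DNAJB9 and DNAJC10 counted as degradation genes, by 0.33, reversed, with medians over members, and by −0.25 to −0.22 without single libraries. EDEM3 passed the fold threshold in Met with a pseudocount of 0.1 (0.59), libraries scaled to the same total (0.71), TMM (0.62), edgeR (0.61) and without 1 of 3 libraries. When libraries were given equal totals, the typical gene (median log2 fold change in Met) went from 0.01 to 0.13. The cause of these differences was not tested.

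As a replicate block, the replicate number gave 16 calls in the interaction in place of 0 (32% of all genes), and 3 with the GC and length trend removed (6.87%). DESeq2 gave 5 (4.52%), and leaving out single libraries 0 to 7. The block without that trend removed changed no other call.

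Of the 40 genes, ERO1B had the fewest reads per kilobase in every group. An exact permutation test of 3 libraries against 3 cannot go below a p of 0.1, so none was used.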
